A study of Mus musculus with 4 samples.

Results

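Cluster 39 was a group of 175 hindbrain neurons that the authors' clustering of nuclei set apart and named after Col19a1 and Sv2b. Its members were taken from the deposited annotation of nuclei, as those that passed quality control and carried this cluster name, and they made up 1.40% of the 12539 nuclei annotated as neurons and part of 39461 kept nuclei in all. The other 12364 neurons were the comparison. Nuclei came from the part of the hindbrain that holds the area postrema and the nucleus of the solitary tract, and were sequenced in 4 libraries with the 10x Genomics 3′ assay. In the AgRP-Gq;POMC-Gi group (2 libraries, AgRP-IRES-Cre+/-;hM3DGqfl/-;POMC-Dre+/-;hM4DGifl/-), Cre in AgRP neurons switches on the activating receptor hM3DGq and Dre in POMC neurons switches on the inhibitory receptor hM4DGi, both from the Rosa26 locus. The control group (2 libraries) is labelled wild type, whereas the methods of the study describe controls that carry both receptor alleles without Cre or Dre. Mice of both groups were C57BL/6, 12 to 20 weeks old and of both sexes, and all had been injected with the receptor ligand CNO (dose 3 mg/kg) for 1 h when the tissue was collected. Each group comprised 2 mice, and tissue of a condition was pooled although each sample was sorted into a tube of its own, so whether a library is 1 mouse or a share of a pool was not settled here. The p-values measure the spread between libraries, which may be technical where libraries share a pool.

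Inhibitory neurons of the hindbrain release glycine, GABA or both. Slc6a5 (GlyT2) takes glycine back into the terminal and marks glycinergic neurons, Gad1 and Gad2 make GABA, and Slc32a1 (VGAT) loads either transmitter into vesicles. Excitatory neurons load glutamate through a vesicular transporter, in the hindbrain chiefly Slc17a6 (VGLUT2). Sv2b is a glycoprotein of synaptic vesicles, and Col19a1 encodes a collagen associated with basement membranes that neurons also express.

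The cluster held 38 and 38 nuclei in control replicates 1 and 2, and 67 and 32 in AgRP-Gq;POMC-Gi replicates 1 and 2, with summed UMIs (counted RNA molecules) of 627678 to 1326466 per library. Its nuclei were deep, with a median of 17328 UMIs and 5357 genes against 8622 UMIs and 3544 genes in other neurons, rank 2 of 134 neuronal clusters by UMIs. Levels are therefore given as CPM (counts per 1e6 UMIs, over the summed nuclei of a library), and shares of nuclei with a UMI were also computed after thinning each nucleus to 2000 UMIs. No barcode sequence occurred in cluster 39 of more than 1 library, and 4 of its nuclei had a barcode that was kept in another library. The libraries also differed outside the cluster's own genes. Xist is expressed from the inactive X chromosome of females. It stood at 14.3 CPM in cluster 39 of AgRP-Gq;POMC-Gi replicate 2 and at 156 to 339 CPM in the other libraries. In other neurons it stood at 16.3 CPM against 323 to 549 CPM. The sex of the animals and AgRP-Gq;POMC-Gi replicate 2 cannot be told apart, and the 2 AgRP-Gq;POMC-Gi libraries were not equal shares of 1 pool. The choroid plexus transcripts Ttr, Folr1 and Kl summed to 597 CPM in control replicate 2 and 301 CPM in AgRP-Gq;POMC-Gi replicate 2, against 1.39 and 3.02 CPM in the other libraries, and were higher still in other neurons.

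The cluster carried the pan-neuronal genes Snap25, Syt1, Rbfox3 and Snhg11, whose summed level was 10006 to 10320 CPM. Markers of other cells were read as whole lists. The endothelial genes Flt1, Cldn5 and Pecam1 summed to 4.18, 15.0, 3.02 and 1.59 CPM in control replicates 1 and 2 and AgRP-Gq;POMC-Gi replicates 1 and 2, above other neurons of the same library in control replicate 2, and Cldn5 was at 0. The 4 cerebellar granule cell genes summed to 0 to 4.51 CPM, with Gabra6 and Cbln3 at 0. The unipolar brush cell genes Eomes and Lmx1a were both at 0. Of the inferior olive genes Htr5b was at 0 and the other, Slc17a6, is described with the transmitters. The 5 astrocyte genes summed to 19.1 to 41.8 CPM against 47.1 to 86.1 CPM in other neurons, mostly Slc1a2. The 3 genes of oligodendrocyte precursors summed to 238 to 330 CPM against 239 to 276 CPM, nearly all from Tnr, with Pdgfra and Cspg4 each at 0.348 CPM. The motor neuron genes Chat, Prph, Isl1 and Slc5a7 summed to 0.754 to 6.96 CPM. The sum of 5 oligodendrocyte genes, among them Mbp, Mobp, Mag and Mog, was 175 and 146 CPM in the control libraries and 57.3 and 84.4 CPM in the AgRP-Gq;POMC-Gi libraries, below other neurons of the same library in each case. The 4 microglial genes summed to 151 to 187 CPM against 135 to 150 CPM, with Tmem119 at 0. P2ry12, the main one, stood at 154 ± 15.8 CPM (mean ± SD, n = 4 libraries, as in what follows) and in other neurons at 124 ± 8.10 CPM. It lies inside Med12l on the other strand, and counts of overlapping genes are uncertain where the use of strand in counting is not given in the sources used here.

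Both naming genes were raised in every library, although neither was particular to the cluster. Col19a1 (chromosome 1, 24261890 to 24587472, minus strand, GRCm38) stood at 104, 107, 139 and 194 CPM in control replicates 1 and 2 and AgRP-Gq;POMC-Gi replicates 1 and 2, a mean of 136 ± 41.9 against 47.0 ± 4.89 in other neurons. Each library of the cluster lay above all libraries of the other neurons, by 1.99-fold to 4.29-fold within a library. Sv2b (chromosome 7, 75114894 to 75309262, minus strand) stood at 148, 149, 216 and 196 CPM, a mean of 177 ± 34.2 against 74.3 ± 9.55, and was 1.89-fold to 3.23-fold higher. Since clusters were made from expression, these levels are a description and were not tested.

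Among the 134 neuronal clusters the cluster ranked 6 for Col19a1. Cluster 77 (138 ± 42.4 CPM) stood just above it and cluster 162 (121 ± 9.29 CPM) just below. Neither differed from it by more than the SD of cluster 39 (41.9 CPM), whereas cluster 162 differed by more than its own SD. For Sv2b it ranked 8. The first was cluster 104, named Gabra6/Fat2, at 582 ± 33.7 CPM, and 4 clusters named after Slc17a7 were also above it, whereas cluster 175 just below (165 ± 44.5 CPM) was within the SD. No other cluster was above it in both genes, and 9 of 133 reached more than 50% of its level in both, among them clusters 33 and 79, which are described below as its nearest neighbours. Nucleus by nucleus, Col19a1 was seen in 140 of 175 (80.0%), Sv2b in 141 (80.6%), both in 115 (65.7%) and neither in 9. At 2000 UMIs per nucleus these shares were 22.9% for Col19a1 and 24.0% for Sv2b, against 6.88% and 10.2% in other neurons and 0.175% and 0.570% in oligodendrocytes, which should lack both. By its shares at 2000 UMIs the cluster ranked 6 among neuronal clusters for Col19a1 and 13 for Sv2b. Of all neurons with a Col19a1 UMI, 4.62% belonged to this cluster.

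**Figure D1:**
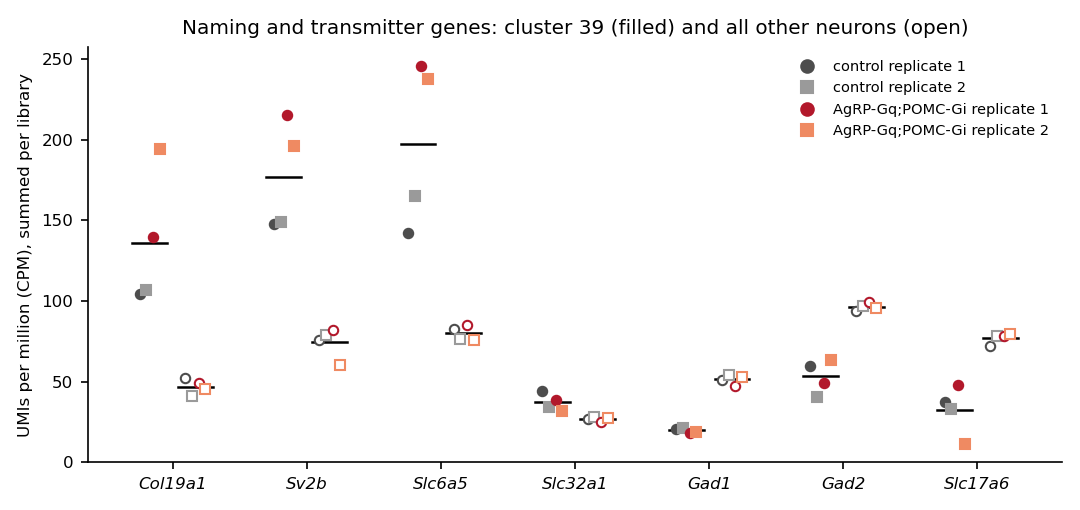
CPM of the naming genes Col19a1 and Sv2b and of 5 transmitter genes in each library, with cluster 39 as filled and all other neurons as open symbols and bars at the mean of the 4 libraries. Col19a1, Sv2b and Slc6a5 lie above the other neurons in every library, Gad1, Gad2 and Slc17a6 below.

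At the level of the cluster, the glycine transporter gene was raised over other neurons and the genes of GABA synthesis and glutamate loading were lower. Slc6a5 (chromosome 7, 49910146 to 49963856, plus strand) stood at 142, 165, 246 and 237 CPM, a mean of 198 ± 51.8 against 80.1 ± 4.66 in other neurons, 2.47-fold. It ranked 13 of 134, and cluster 74 at 268 ± 44.8 CPM was the highest. Slc32a1 (chromosome 2, 158610767 to 158615748, plus strand) was 1.16-fold to 1.66-fold above other neurons by library, with 37.4 ± 5.50 against 26.8 ± 1.24 CPM. Gad1 was at 19.8 ± 1.43 against 51.5 ± 3.10 CPM and Gad2 was at 53.3 ± 10.5 against 96.5 ± 2.39 CPM. Slc6a9, the glycine transporter GlyT1 found chiefly in glia, was at 9.40 ± 6.0 CPM and varied from 0.106 to 1.27 times other neurons.

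Slc17a6 (chromosome 7, 51622006 to 51671119, plus strand) stood at 37.6, 33.1, 48.2 and 11.2 CPM, a mean of 32.5 ± 15.6 against 77.0 ± 3.35 in other neurons. It was below other neurons in each library, and AgRP-Gq;POMC-Gi replicate 2 was the low one. Slc17a7 and Slc17a8, the other vesicular glutamate transporters, were at 0.376 and 0.941 CPM. The cholinergic genes Chat, Slc5a7 and Slc18a3 were each under 1 CPM, and of the monoamine genes Dbh, Pnmt and Slc6a2 were at 0, Th at 0.696 and Tph2 at 0.398 CPM. Slc18a2, the vesicular monoamine transporter VMAT2, was at 23.6 ± 11.3 CPM, within the SD of other neurons (23.0 ± 3.59).

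A mean over the cluster does not say whether single nuclei carry both kinds of transmitter gene, so the nuclei were examined one by one. Slc6a5 was seen in 136 of 175 nuclei (77.7%, exact 95% interval 70.8 to 83.6), Slc32a1 in 73 (41.7%, 34.3 to 49.4), Gad1 or Gad2 in 96 (54.9%, 47.2 to 62.4) and Slc17a6 in 46 (26.3%, 19.9 to 33.5), and these intervals cover counting error only. Slc6a5 and a Gad gene were found together in 86 nuclei, 63.2% of those with Slc6a5, whereas 10 nuclei had a Gad gene without Slc6a5. Slc6a5, Slc32a1 and a Gad gene were all found in 47. With 2 UMIs required of Slc6a5 and of a Gad gene, 44 of 175 nuclei had both. In oligodendrocytes, which should lack these genes, 1.39% of nuclei had a Slc6a5 UMI, 1.86% a Gad1 UMI and 3.03% a Gad2 UMI, at a median of 2460 UMIs. In other neurons 80.5% of nuclei with Slc6a5 held a Gad gene, at lower depth than in the cluster.

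Slc17a6 was divided differently. In 129 nuclei it had 0 UMIs, in 17 it had 1, and in 29 (16.6%) it had 2 or more, up to 9. Slc6a5 was seen in 116 of the 129 nuclei without Slc17a6 (89.9%), in 8 of the 17 with 1 UMI and in 12 of the 29 with 2 or more. Slc32a1 was seen in 66, 4 and 3 of them. With 2 UMIs required of each gene, 2 nuclei (1.14%, 0.139 to 4.07) held both Slc17a6 and Slc6a5 and 1 nucleus held both Slc17a6 and Slc32a1. At 2000 UMIs per nucleus, 11 nuclei had Slc17a6, 58 had Slc6a5, 6 had Slc6a5 with a Gad gene, and 0 of 175 had Slc17a6 with Slc6a5, which allows a share of up to 1.71% of nuclei with a UMI of both at that depth and sets no limit on expression. At full depth 20 nuclei (11.4%, 7.12 to 17.1) had at least 1 UMI of both.

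Free RNA and doublets can add UMIs to a nucleus, and their part in these counts was not tested. In oligodendrocytes, which should lack Slc17a6, 2.66% of nuclei had a UMI at 2000 UMIs, against 6.29% in cluster 39 and 12.8% in other neurons, and 0.220% had 2 or more at full depth, at a median of 2460 UMIs. Of the 3 most similar clusters, cluster 33 had 2 or more Slc17a6 UMIs in 2 of 197 nuclei (1.02%), cluster 79 in 3 of 115 (2.61%) and cluster 30 in 93 of 219 (42.5%), and all other neurons in 19.4%, at medians of 11121, 10884, 13154 and 8622 UMIs. Nuclei of cluster 39 with 2 or more and those with 0 had medians of 16241 and 17495 UMIs, and 5140 and 5400 genes. Their UMIs ranged from 11076 to 38875 and from 4317 to 45100, so no shallow nucleus was among those with 2 or more. By library, 6 of 38, 7 of 38, 14 of 67 and 2 of 32 nuclei had 2 or more, that is 15.8%, 18.4%, 20.9% and 6.25%, so AgRP-Gq;POMC-Gi replicate 2 held the fewest and the groups overlapped.

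**Figure D2:**
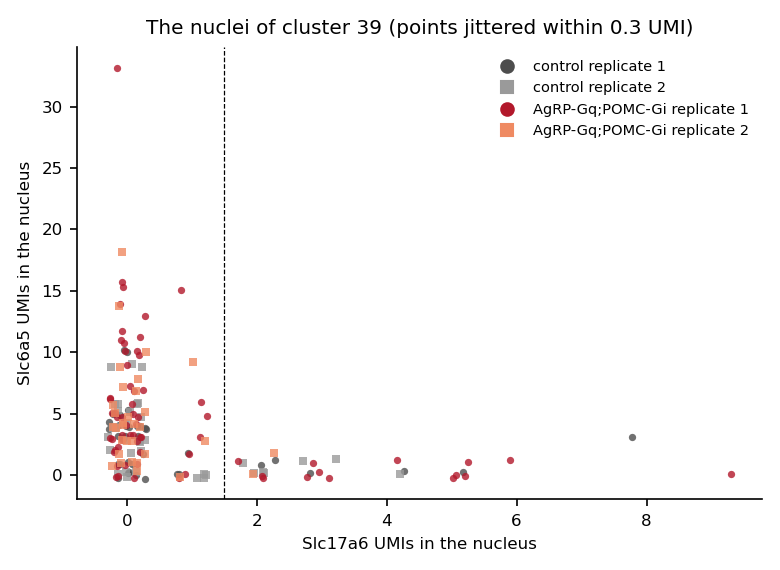
Slc17a6 UMIs (x) and Slc6a5 UMIs (y) in each of the 175 nuclei of cluster 39, coloured by library and jittered by up to 0.3 UMI, with a dashed line between 1 and 2 Slc17a6 UMIs. Nuclei lie mostly along one axis or the other, 129 of them at 0 Slc17a6 UMIs and 29 to the right of the line.

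The 29 nuclei with 2 or more Slc17a6 UMIs and the 129 with none had close pooled levels of the naming genes, with libraries that went either way for Col19a1. Pooled, Col19a1 stood at 134 and 131 CPM, and by library at 73.4 against 120, 133 against 98.6, 181 against 118 and 88.7 against 194 CPM. Sv2b stood at 199 and 178 CPM in the summed UMIs of each class, Syt2 at 293 and 256, Kcna1 at 344 and 304 and Nfia at 276 and 321. Inhibitory genes differed. Slc6a5 was at 26.2 against 257 CPM, Slc32a1 at 6.98 against 48.0, Gad2 at 22.7 against 62.8, and Gad1 had 0 UMIs against 63. By library Gad2 went the other way in AgRP-Gq;POMC-Gi replicate 2, at 70.9 against 58.3 CPM, where 2 nuclei had 2 or more Slc17a6 UMIs. Pax2 and Pax8, transcription factors of inhibitory hindbrain and spinal neurons, were at 19.2 against 118 CPM and 1.75 against 54.2 CPM. Foxp2, a forkhead factor, was at 17.5 against 183 CPM and was seen in 17.2% against 29.5% of nuclei. Nos1, nitric oxide synthase, was at 1.75 against 18.5 CPM, from 1 UMI against 45, and was seen in 3.45% against 15.5% of nuclei. In control replicate 2, which held that 1 UMI, Nos1 was at 8.87 against 10.3 CPM.

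Within the 3 libraries that had at least 5 such nuclei, 28 of the 7285 genes seen in at least 30% of the nuclei with 2 or more Slc17a6 UMIs were above 2-fold in each, and 45 of the 7114 seen in at least 30% of those with none were under 50%. Each direction was thus filtered on the class where the gene is high. The 28 leave out genes with 0 UMIs in the nuclei with none, Slc17a6 among them. The lower side had no such condition, and Gad1 with 0 UMIs was kept there. The genes named from this split were chosen after their values were seen. Nrn1, neuritin, was at 119 against 7.39 CPM and seen in 79.3% against 8.53% of nuclei. Cacna2d1, a calcium channel subunit that also acts in synapse formation, was at 410 against 39.4 CPM and seen in 93.1% against 14.7%. Tmem163, a zinc transporter of vesicles, was at 243 against 35.7 CPM, and Mas1, a receptor for angiotensin 1-7, at 34.9 against 8.62 CPM. Of the listed genes, Sox5 (133 against 44.7 CPM), Cacna1g (38.4 against 11.9 CPM) and Npy5r (24.4 against 8.62 CPM) were on the same side. The split is a cut along a count, with 17 nuclei at 1 UMI next to it, and does not by itself define a cell type. Whether the cluster holds more than 1 cell type was not tested.

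**Figure D3:**
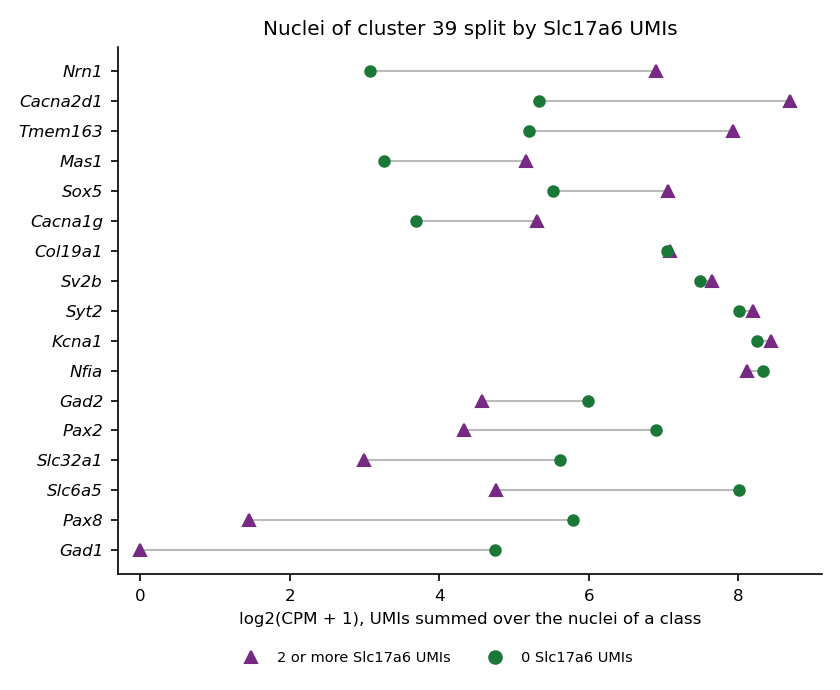
Levels of 17 genes, as log2(CPM + 1) of summed UMIs, in the 29 nuclei of cluster 39 with 2 or more Slc17a6 UMIs (triangles) and the 129 with none (circles). Col19a1, Sv2b, Syt2, Kcna1 and Nfia nearly coincide, the inhibitory genes and Pax2 and Pax8 lie far lower in the triangles, and Nrn1, Cacna2d1 and Tmem163 far higher.

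Among 7097 genes seen in at least 30% of the nuclei of the cluster, 19 were above 2-fold in each library against other neurons. The highest ratio was that of Cyp39a1, an oxysterol 7-alpha-hydroxylase (chromosome 17, 43667425 to 43751431), at 25.1 ± 10.8 against 4.16 ± 0.494 CPM, with 13.9, 39.1, 20.4 and 27.1 CPM in the 4 libraries. The highest other neuronal cluster was cluster 79 at 22.2 CPM, and oligodendrocytes were at 23.6 CPM. P2rx6, a subunit of ATP-gated channels, was at 39.3 ± 5.02 against 6.62 ± 0.541 CPM, and ranked 3, with cluster 183 the highest at 44.2 CPM. Col4a5, a basement membrane collagen, was at 41.9 ± 9.11 against 8.93 ± 1.59 CPM. Lrmda, linked to pigment cell differentiation, was at 287 ± 18.5 against 72.0 ± 6.98 CPM, and the noncoding genes 4921539H07Rik and Gm26633 were at 32.2 ± 11.1 against 5.75 ± 1.17 and 64.5 ± 15.2 against 17.2 ± 1.59 CPM.

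The 19 also included genes of axon calibre and excitability. Nefm and Nefh, the medium and heavy neurofilament chains, were at 275 ± 12.2 against 111 ± 9.57 and 67.7 ± 14.9 against 26.8 ± 3.6 CPM. Kcna1 (Kv1.1), which limits repetitive firing, was at 319, 292, 305 and 323 CPM, a mean of 310 ± 14.3 against 124 ± 4.97, and ranked 4 of 134. Scn4b, the sodium channel subunit linked to resurgent current, was at 23.6 ± 3.78 against 9.09 ± 1.38 CPM. Kcns3, a silent potassium channel subunit, was at 49.3 ± 9.54 against 16.3 ± 1.19 CPM, and Hapln1, a link protein of perineuronal nets, at 26.5 ± 3.58 against 9.02 ± 0.828 CPM. The transcription factor Nfia was at 302 ± 33.6 against 110 ± 14 CPM. The remaining ones, Cgnl1, Spsb4, Tnfrsf11a, Zfp101, Tpcn2 and Strip2, were 2.28-fold to 3.17-fold higher. Oligodendrocytes stood above the cluster for Nfia, Kcna1, Lrmda and Zfp101, at 633, 462, 339 and 62.8 CPM. They stood below it for the rest of the 19.

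Of 4512 genes seen in at least 30% of other neurons, 43 were under 50% of their level in each library. Fnbp1l, an actin regulator of membrane bending, was at 7.14 ± 2.98 against 79.8 ± 3.20 CPM, and Camk2a, the alpha subunit of calmodulin kinase II, at 16.1 ± 2.33 against 110 ± 19.6 CPM. Camkv, a related pseudokinase, was at 7.99 ± 6.14 against 51.0 ± 11.5 CPM. Trpm3, a heat- and steroid-gated cation channel, was at 117 ± 55.9 against 780 ± 106 CPM. Ebf1 and Ebf3, transcription factors of the early B-cell factor family, were at 99.0 ± 18.9 against 540 ± 117 and 17.2 ± 8.15 against 99.0 ± 10.3 CPM. Also among the 10 lowest were Cep112, Cacna2d1 and Prex2 at 0.209, 0.257 and 0.258 of other neurons. Cacna2d1, at 133 ± 25.1 CPM in the whole cluster, was one of the 28 genes above 2-fold in the nuclei with 2 or more Slc17a6 UMIs.

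**Figure D4:**
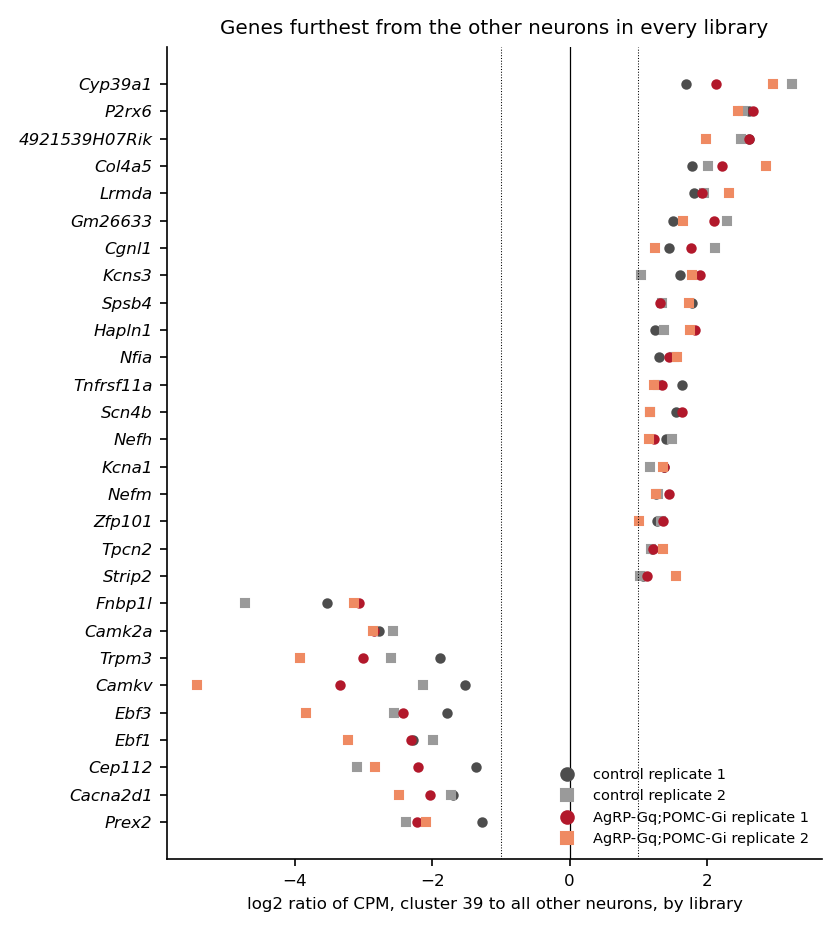
Ratio of CPM in cluster 39 to all other neurons in the same library, on a log2 scale, for the 19 genes above 2-fold in every library and 9 of the 10 lowest of those under 50%. Dotted lines mark 2-fold in either direction, and each point is 1 library.

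Voltage-gated channels, synaptic vesicle proteins and receptors were read from lists of genes, beside which the median ratio of all 11654 genes seen in at least 10% of either set of nuclei was 0.988. Of 35 voltage-gated channels, 34 met that minimum, with a median ratio of 0.838. Of the 5 sodium channels listed, 3 had means above other neurons and 2, Scn2a and Scn3a, below. Scn8a (Nav1.6) was at 389 ± 37.2 against 275 ± 13.1 CPM and Scn1a (Nav1.1) at 641 ± 59.1 against 468 ± 16.3 CPM, each rank 7, and Scn9a at 837 ± 107 against 512 ± 44.1 CPM, rank 10. Kcna2 (Kv1.2), the partner of Kv1.1 in axons, was at 106 ± 26.9 against 62.3 ± 9.23 CPM. Low ones were Kcnh8 at 0.131, Kcnn3, a small-conductance calcium-activated channel, at 0.204, and Kcnc4 at 0.285 of other neurons. Of the 34, 6 were under 50% and 1, Kcna1, was above 2-fold in each library, against 162 and 47 of all 11654 genes, and Kcnip4, a modulator of Kv4 channels with the highest CPM of the list, was at 0.732 of other neurons.

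Among the vesicle proteins the isoforms diverged. Syt2, the calcium sensor of fast release, was at 258, 271, 245 and 298 CPM, a mean of 268 ± 22.7 against 120 ± 9.21, and ranked 3 of 134. Syt1, the related sensor, was at 824 ± 113 against 1362 ± 38.1 CPM and ranked 99. Vamp1 (84.2 ± 22.0 against 56.1 ± 5.96 CPM), Cplx1 (121 ± 20.6 against 85.7 ± 14.6 CPM) and Sv2c (263 ± 30.9 against 141 ± 8.62 CPM) were higher and Sv2a was level at 102 ± 13.3 against 102 ± 11.1 CPM. Syt6 and Syt9 were at 0.351 and 0.374 of other neurons. The median ratio of the 16 vesicle genes was 1.04.

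Of the AMPA receptor subunits, which carry fast excitatory current, Gria3 was at 858 ± 132 against 451 ± 16.4 CPM (rank 5) and Gria4 at 1792 ± 123 against 1380.2 ± 59.6 CPM (rank 11), whereas Gria1 was at 170 ± 41.7 against 400 ± 21.5 CPM (rank 108). Grm4, a presynaptic metabotropic receptor, was at 28.8 ± 5.35 against 17.8 ± 2.28 CPM, and Grm8 and Grm3 were at 0.454 and 0.528 of other neurons. The median ratio of 22 glutamate receptor genes was 0.849. Of the receptors for inhibition, Glra1, the adult glycine receptor subunit, was at 327, 350, 371 and 315 CPM, a mean of 341 ± 24.7 against 226 ± 4.05, and Gabra5 was at 97.7 ± 10.6 against 70.4 ± 7.13 CPM. Gabra4 (4.66 ± 1.52 against 26.3 ± 5.16 CPM), Gabrg1 and Glra2 were the lowest, and the median ratio of 15 genes was 0.701.

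Neuropeptides were scarce. Of 25 peptide genes, 3 reached 10% of the nuclei of either set: Sst at 11.8 ± 4.02 against 30.6 ± 4.77 CPM, Penk at 10.5 ± 2.95 against 43.7 ± 7.72 CPM, and Agrp. Pdyn, Tac2, Trh, Gcg and Ucn were at 0. Agrp was at 88.0 ± 12.2 CPM, level with other neurons at 88.0 ± 4.20, although its mRNA is known from the arcuate nucleus. Its annotated span (chromosome 8, 105566698 to 105637393, minus strand) overlaps Gm45855 and Gm5914 on the same strand. On the other strand it overlaps Ctcf and Ripor1, among others. The Agrp UMIs thus cannot be assigned to the peptide gene with certainty. Pvalb, the calcium buffer of many fast-spiking neurons, was at 27.9 ± 14.8 against 20.9 ± 3.68 CPM, a difference within the SD, and Calb1 and Necab1 were at 0.362 and 0.338 of other neurons.

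Of 40 peptide and hormone receptors, 14 met the 10% minimum, with a median ratio of 1.08. Cckbr, the type B cholecystokinin receptor, was the one furthest from other neurons, at 17.1 ± 4.04 against 6.55 ± 1.55 CPM (rank 9). The leptin receptor Lepr was at 23.0 ± 5.29 against 17.6 ± 1.88 CPM, a difference of about 1 SD, and the insulin receptor Insr was level at 118 ± 9.21 against 124 ± 5.95 CPM. Glp1r was at 1.92 and Gfral at 0.564 CPM, and Cckar, Gipr, Ghsr and Prlhr were at 0. Mc4r, the receptor through which AgRP and the POMC product alpha-MSH act, was at 3.21 CPM, Mc3r at 0 and Npy1r at 6.22 CPM. Of the monoamine and acetylcholine receptors, Htr4 was at 105 ± 16.4 against 60.5 ± 3.59 CPM and Adra1a, an adrenergic receptor, at 70.4 ± 12.4 against 41.8 ± 2.09 CPM.

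Of 71 lineage transcription factors, 30 met the 10% minimum, with a median ratio of 0.771, 9 under 50% and 1, Nfia, above 2-fold in each library, against 162 and 47 of all 11654 genes. Pax2 was at 96.1, 91.7, 99.5 and 98.8 CPM, a mean of 96.5 ± 3.54 against 59.3 ± 4.36, and Pax8 at 45.4 ± 12.2 against 24.0 ± 1.49 CPM. Esrrg was at 821 ± 79.3 against 474 ± 40.0 CPM, Onecut2 at 41.6 ± 12.8 against 23.5 ± 2.33 CPM and Onecut1 at 8.48 ± 2.89 against 4.55 ± 1.65 CPM. Lmx1b, of serotonergic and dorsal excitatory neurons, was at 0.376 against 16.5 CPM, Zic1 at 2.32 and Ebf2 at 6.94 CPM. Tlx3, Phox2a, Lhx9, Ptf1a and Lbx1 were at 0. The Hox genes that pattern the hindbrain were low: of 9 that met the minimum all were under other neurons by their means, with a median ratio of 0.416. Hoxb3 was at 18.7 ± 1.79 against 50.3 ± 4.79 CPM and ranked 126 of 134.

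The cluster's average profile was closest to cluster 33, named Il1rapl2/Slc6a5 (r = 0.981), cluster 79, named Kcnmb2/Slc6a5 (r = 0.975), and cluster 30, named Zfp804b/Npas1 (r = 0.972). These are Pearson correlations of log2(CPM + 10) over 12115 genes of profiles that share libraries and depth, genes are not independent, and they are given without a p. Against cluster 33 the largest excess was Cacna2d1 (133 ± 25.1 against 19.1 ± 6.69 CPM), followed by Dchs1, Megf11, Tmem163 and Tesc at 3.28-fold to 4.52-fold. For Cacna2d1 and Tmem163 the 29 nuclei with 2 or more Slc17a6 UMIs were at 410 and 243 CPM and the 129 with none at 39.4 and 35.7 CPM, against 19.1 and 21.1 CPM in cluster 33. Pbx3 (198 ± 39.7 against 565 ± 98.8 CPM), Bcl11a and Atp2b4, a plasma membrane calcium pump, were lower. Against cluster 79, Kcnmb2 was at 82.9 ± 46.2 against 711 ± 233 CPM, and Adarb2 at 831 ± 142 against 195 ± 110 CPM. Cluster 30 held Slc17a6 in 146 of 219 nuclei and Slc6a5 in 32, and against it Pax8 was 21.6-fold and Slc6a5 7.16-fold higher in cluster 39, and Ankfn1 and Npas1 were at 0.0580 and 0.0729 of its level.

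The comparison of groups asks what activating AgRP neurons while inhibiting POMC neurons does to these neurons 1 h later. The size of the cluster did not separate the groups. It took 1.54% (exact 95% interval 1.09 to 2.11) and 1.39% (0.985 to 1.90) of neurons in the control libraries, and 1.81% (1.41 to 2.30) and 0.880% (0.603 to 1.24) in the AgRP-Gq;POMC-Gi libraries. The AgRP-Gq;POMC-Gi libraries lay on either side of the controls, and the difference of group means was -0.117 percentage points (exact permutation test, two-sided, p = 1). With 2 libraries against 2 this test cannot go below 0.333.

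No gene passed the threshold between groups with genes filtered on detection, and 36 did without that filter. Of 13553 genes tested in cluster 39 with edgeR's quasi-likelihood test, 0 had an adjusted p at or under 0.05 (0%), the lowest being 0.192, and 806 (5.95%) had an unadjusted p under 0.05, 375 higher and 431 lower in AgRP-Gq;POMC-Gi. Without TMM factors, which moved the median log2 fold change from 0.01 to -0.08, that split was 218 higher and 650 lower. DESeq2 called 0 genes as well, with 107 at an unadjusted p under 0.05. In simulated counts of these libraries the edgeR test called 28 of 100 genes changed by 1 on the log2 scale. It called 82 of 100 changed by 3, with 7 calls among unchanged genes, so changes of about 2-fold would mostly have been missed. The simulation gave genes of like level the same spread and let no library deviate over many genes together. These shares therefore need not hold for the data. The count rested on every library: it was 3 without control replicate 1, 26 without control replicate 2, 39 without the first AgRP-Gq;POMC-Gi library and 122 without the second one (replicate 2), in fits where the lone library of a group is assumed to vary like the other group. Groups did not overlap in 4715 of 13553 genes (34.8%), 13.1% with higher and 21.7% with lower values in AgRP-Gq;POMC-Gi. These are CPM without TMM factors, and with 2 libraries against 2 random labels would give a share close to 34.8%. The genes below are named by their unadjusted p among those 4715.

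The 5 with higher values in the AgRP-Gq;POMC-Gi libraries were A330093E20Rik, Zeb2, Gpc5, Hsd11b2 and Rpgr. A330093E20Rik, a noncoding gene antisense to Kcnn2, was at 25.1 and 13.5 CPM in the controls and 60.3 and 58.9 CPM in AgRP-Gq;POMC-Gi, a log2 fold change of 1.70 ± 0.32 (SE; edgeR adjusted p = 0.192). Zeb2, a zinc finger repressor, was at 32 and 25.6 against 76.1 and 57.4 CPM, and Gpc5, a glypican, at 491 and 752 against 889 and 1224 CPM. Rpgr, a protein of the ciliary base, was at 58.5 and 69.1 against 110 and 112 CPM. Hsd11b2, which inactivates corticosterone, had 0 UMIs in both control libraries and 11 and 7 in the others. Taking 3 UMIs over the control group as the limit that a count of 0 allows, the AgRP-Gq;POMC-Gi level was 4.25-fold above that limit. This ratio leaves out the counting error of the 18 UMIs and the spread between libraries, so it is not a lower bound. In other neurons Hsd11b2 was at 0.612 and 0.411 CPM in the controls and 8.20 and 8.83 CPM in AgRP-Gq;POMC-Gi, with an adjusted p of 0.00134 by edgeR when genes were not filtered, the 1 gene called there. In cluster 39, too, leaving out the filter gave lower adjusted p: 0.0252 for Hsd11b2, 0.00104 for A330093E20Rik, 0.00718 for Zeb2, 0.00148 for Gpc5 and 0.0611 for Rpgr by edgeR. It lies on chromosome 8 at 105518755 to 105523988, 42710 bases before the annotated start coordinate of Agrp, where the AgRP-Gq;POMC-Gi mice carry the AgRP-IRES-Cre allele. The part of that allele in the difference cannot be told apart from that of the treatment of AgRP neurons.

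The 5 with lower values were Gapdh, Rplp1, Hsp90ab1, Fth1 and mt-Nd2, abundant transcripts of glycolysis, the ribosome, protein folding, iron storage and the mitochondrial genome. Gapdh was at 136 and 88.7 CPM in the controls and 42.2 and 49.4 CPM in AgRP-Gq;POMC-Gi, a log2 fold change of -1.23 ± 0.24 (SE; edgeR adjusted p = 0.192), and Hsp90ab1 at 285 and 212 against 82.2 and 150 CPM. Rplp1 was at 55.7 and 43.6 against 12.8 and 17.5 CPM. Without a filter on genes all 5 passed by edgeR, with adjusted p of 0.0018 to 0.00813. In other neurons Gapdh was at 106 and 113 against 63.7 and 102 CPM, with AgRP-Gq;POMC-Gi replicate 1 the lowest. Other signs moved the same way. Mitochondrially encoded genes took 0.124% and 0.0911% of UMIs of the cluster in the controls and 0.0513% and 0.0832% in AgRP-Gq;POMC-Gi, 12 of 13 had a log2 fold change below 0 where the median of all genes was 0.01, and the summed oligodendrocyte genes given above were lower in both AgRP-Gq;POMC-Gi libraries. In other neurons the mitochondrial share was 0.123% and 0.147% against 0.0933% and 0.120%, and the oligodendrocyte sum 277 and 232 against 137 and 172 CPM. Their part in these values was not tested.

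**Figure D5:**
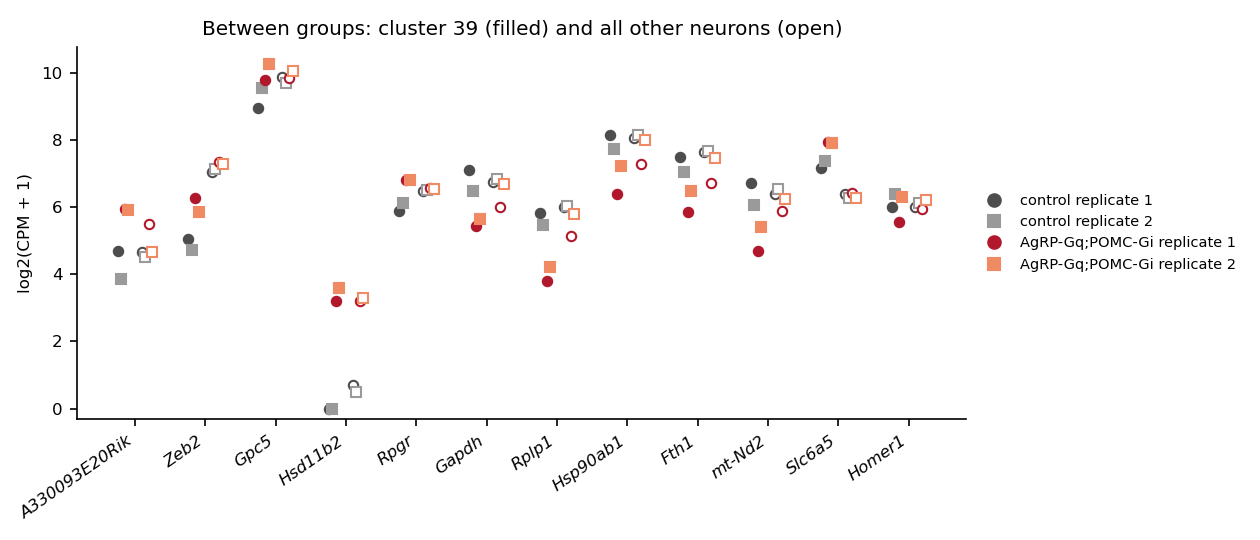
log2(CPM + 1) of the 10 genes named between groups, of Slc6a5 and of Homer1 in each library, with cluster 39 filled and all other neurons open. In cluster 39 the AgRP-Gq;POMC-Gi libraries (red and orange) lie above both controls from A330093E20Rik to Rpgr and below them from Gapdh to mt-Nd2, and no gene shown passed an adjusted p of 0.05 with the filter on detection, whereas 9 of the 10 passed without it.

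The naming genes and Slc6a5 had higher values in both AgRP-Gq;POMC-Gi libraries than in either control, as did 13.1% of all genes tested, without passing the test. Slc6a5 was at 142 and 165 against 246 and 237 CPM, a log2 fold change of 0.74 ± 0.19 (SE; edgeR adjusted p = 0.304), Col19a1 at 0.71 ± 0.20 (adjusted p = 0.454) and Sv2b at 0.57 ± 0.19 (adjusted p = 0.598). In other neurons their log2 fold changes were 0.07, 0.08 and -0.05. The difference between cluster 39 and other neurons was 0.65 ± 0.17 for Slc6a5 (edgeR interaction, adjusted p = 0.642). Clusters were made from expression, and whether these genes shaped this one is not known here. The share of nuclei with Slc17a6 also differed between libraries. The fit between groups was therefore run on the 129 nuclei without a Slc17a6 UMI, an alternative chosen after seeing the data. There Slc6a5 had a log2 fold change of 0.61, and 0 of 13436 genes were called. A count of 0 does not show that a nucleus lacks Slc17a6, so this choice of nuclei need not remove that difference between libraries. Slc32a1, Gad1 and Gad2 had log2 fold changes of -0.05, -0.09 and 0.21, and Slc17a6 of 0.05 with a sign that turned in 5 alternatives.

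Immediate-early genes, which neurons switch on within minutes of firing, gave no call in the cluster. Fos was at 3.22, Fosl2 at 1.99 and Nr4a3 at 0.746 CPM, each seen in too few nuclei for the test. Of the 10 genes of the study's list 7 were tested and 0 had an unadjusted p under 0.05, against 5.95% of all genes. Homer1 was at 62.6 and 82.7 CPM in the controls and 46.0 and 78.1 CPM in AgRP-Gq;POMC-Gi, with overlapping groups (log2 fold change -0.22 ± 0.26, edgeR adjusted p = 0.96). Nr4a1 was at 0.19 ± 0.58, Jun at 0.43 ± 0.63, Junb at 0.32 ± 0.77, Btg1 at -0.31 ± 0.56, Gem at -0.36 ± 0.55 and 1700016P03Rik at -0.36 ± 0.40 on the log2 scale, each less than its SE (the values after ±) from 0. The 10 genes summed to 138 and 158 CPM in the controls and 103 and 142 CPM in AgRP-Gq;POMC-Gi. Of 16 other activity-induced genes, 8 were tested and 0 had an unadjusted p under 0.05.

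In no other list did a member pass the test. Over all genes 5.95% had an unadjusted p under 0.05, 375 higher and 431 lower of 13553. The corresponding counts of members, higher and lower, were 4 and 0 of 23 glutamate receptors (median log2 fold change 0.18, all genes 0.01), 3 and 2 of 35 voltage-gated channels (0.13), 1 and 0 of 15 GABA and glycine receptors (0.11), 3 and 0 of 13 monoamine and acetylcholine receptors (0.07), 1 and 2 of 16 vesicle proteins (-0.08), 4 and 0 of 13 collagens (-0.15), 2 and 1 of 34 transcription factors (-0.06), 1 and 0 of 9 Hox genes (0.05), 2 and 0 of 6 genes of nitric oxide and calcium binding (0.38), and 0 and 3 of 5 oligodendrocyte markers (-1.35). Of 18 peptide and hormone receptors tested, 0 had an unadjusted p under 0.05. Vamp1, high in the cluster, was at 98.8 and 107 against 61.1 and 70.1 CPM, with an adjusted p of 0.699 by edgeR.

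The group effect in cluster 39 was also set against that in all other neurons in the same libraries. Of 11901 genes, 0 had an adjusted p at or under 0.05 for the difference (0%), and 586 (4.92%) had an unadjusted p under 0.05. DESeq2 called 0 with 119 at an unadjusted p under 0.05, whereas edgeR called 27 without a filter, 28 with filterByExpr and 5 to 19 with 1 library left out (5 without control replicate 1, 19 without control replicate 2, 18 and 16 without the first and second AgRP-Gq;POMC-Gi library). The lowest adjusted p was that of Fbxl7, an F-box protein, at 61.3 and 91.7 against 33.9 and 31.9 CPM in cluster 39 and 84.5 and 117 against 136 and 94.5 CPM in other neurons, a difference of -1.45 ± 0.25 on the log2 scale (SE; edgeR adjusted p = 0.0765). Trpm3 and Tafa2 followed at -1.12 ± 0.24 and -0.99 ± 0.22, each with an adjusted p of 0.374. In other neurons alone, 0 of 12080 genes were called (0%), with 665 (5.50%) at an unadjusted p under 0.05, and DESeq2 called 12. There the count was 52 with the replicate number as a block, 3 and 23 without the first and second control library, 55 without the first AgRP-Gq;POMC-Gi library and 2079 without the second one (replicate 2).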

How the data were processed

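Single-nucleus libraries of 4 hindbrain samples (2 control, 2 AgRP-Gq;POMC-Gi) were analysed. The authors aligned reads to GRCm38 (mm10) and counted UMIs with Cell Ranger 7.0.0, and deposited raw counts per gene and nucleus for each library. UMI totals computed here equalled those of the deposited table in 44303 of 44303 barcodes. Quality control, doublet removal, cluster and cell type of each nucleus came from the deposited annotation, which the authors made with scVI embeddings and Seurat 4.3.0, and no further doublet caller was run. Their scores of immediate-early genes per cluster hold comparisons of groups and were not used.

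UMIs were summed per library and tested with edgeR 4.0.16 (R 4.3.3, TMM factors, quasi-likelihood test, Benjamini-Hochberg adjustment over all genes detected in 5% or more of nuclei), whereas the study's mixed model nebula was not run here. Interactions took the library as a fixed effect. Alternatives were no TMM factors, DESeq2 1.42.0, other filters on genes, a replicate block, leaving out each library, and, chosen after seeing the data, nuclei without a Slc17a6 UMI. Nuclei were thinned to 2000 UMIs where shares were compared, which all 175 nuclei reached, against 12198 of 12364 other neurons and 11400 of 16816 oligodendrocytes. Shares carry exact Clopper-Pearson 95% intervals. Tests were checked on simulated data. Positions are from GENCODE M21 (GRCm38), where 32158 of 32285 gene identifiers matched.

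Genes named were the naming genes, members of lists (of a list of more than 6 genes, up to 5 with the highest CPM, 5 with the highest and 3 with the lowest ratio), up to 20 genes above 2-fold and 10 under 50% in every library, the 5 genes with the lowest p in each direction whose groups did not overlap, and genes that separate the 3 most similar clusters. Further list members and the genes that separate nuclei by Slc17a6 were named after their values were seen. The members and lists were chosen with earlier results of these data known. Tables were made in Python 3.11.15 and figures with matplotlib 3.10.9. Results on a few genes are not reported here.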

Additional observations from a re-analysis of the deposited data

How the results depend on the processing

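Changes of about 2-fold were mostly missed in simulated counts of these 4 libraries, and a library left out changed every count of calls. In cluster 39, 0 genes were called by edgeR with and without TMM factors, with the filterByExpr filter of edgeR and by DESeq2, 36 without a filter and 3 to 122 with 1 library left out. In other neurons 0 genes were called, 12 by DESeq2, 1 without a filter, 1 with filterByExpr and 3 to 2079 with 1 library left out, the highest without AgRP-Gq;POMC-Gi replicate 2. For the difference of the group effect 0 genes were called, 27 without a filter, 28 with filterByExpr and 5 to 19 with 1 library left out. The cause was not tested.

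With the replicate number as a block (replicate block), 0 genes were called in cluster 39, with 675 at an unadjusted p under 0.05, and 52 in other neurons. The labels do not say that a number marks a shared batch, and with 2 pairs this was not decided from the data. The correlation of their deviations from the group means was -0.01 in cluster 39 and 0.21 in other neurons, and choroid plexus transcripts were high in both libraries numbered 2.

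The share of neurons differed by -0.117 percentage points, by 0.121 with all kept nuclei as the denominator, and by -0.584 to 0.349 with 1 library left out, the latter without AgRP-Gq;POMC-Gi replicate 2. Gad1 in cluster 39 was at 22.8 CPM as a mean over nuclei. The log2 fold change of Slc17a6 (0.05) was -0.059 without TMM factors, -0.11 by DESeq2, -0.12 with the replicate block and -1.62 to 0.58 with 1 library left out. With 1 library left out it was -0.28 to 0.14 for Slc32a1, -0.021 to 0.51 for Gad2, -0.52 to 0.14 for Homer1, -0.16 to 0.69 for Nr4a1, -0.79 to 0.17 for Gem and -0.016 to 0.82 for Junb. Of 24 named genes followed under 9 or 10 alternatives each, these 7 turned sign under at least 1, and 12 had an adjusted p at or under 0.05 under at least 1.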
